A study of Homo sapiens with 12 samples.

Results

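MOLM14 is an established human line of acute myeloid leukemia (AML). Followed in it were the glucose-sensing factor genes MLXIPL and MLXIP, their partner gene MLX and the alpha-arrestin genes TXNIP, ARRDC3 and ARRDC4. They were found by matching the table's Ensembl identifiers to these symbols, which gave 6 of 61487 identifiers, and all 6 were among the 16104 genes that passed the filter on low counts. The genes were selected on earlier results of these data, among them the response of MLXIPL to all-trans retinoic acid (ATRA). Their values for ATRA against untreated cells are therefore a description with no test, and tests in the other comparisons, some of which share those libraries, are not independent support. All cells carried shRIP140, an shRNA against the coregulator RIP140 (gene NRIP1) that doxycycline (DOX) induces. There were 3 biological replicates in each of 4 groups: untreated, ATRA at 1 µM for 48 h, DOX at 50 ng/mL renewed every other day, and both agents (the combined group). All were grown in serum free of tetracycline. No DOX-treated library without this shRNA was analysed here, so effects of DOX itself and of the shRNA cannot be told apart. Whether the line is 1 clone is not given in the sources used here.

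MLXIPL encodes ChREBP and MLXIP encodes MondoA, paralogous transcription factors that respond to sugar phosphates made from glucose. Each binds DNA together with MLX, at pairs of E-box-like sequences called carbohydrate response elements. TXNIP and ARRDC4 are their best known targets in many cell types, and both encode alpha-arrestins that restrain glucose uptake. TXNIP also binds thioredoxin, and in liver ChREBP drives genes of glycolysis and lipid synthesis. ARRDC3 encodes another alpha-arrestin, an adaptor between NEDD4-type ubiquitin ligases and membrane proteins.

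RefSeq promoter windows (GRCh38.p14) were found for all 6 genes, and the 250 bases before the start are printed for TXNIP and ARRDC4, the usual readouts of these factors, and for MLXIPL, the factor gene that responded to ATRA. Capitals mark, on either strand, the paired element (CACGNG, any 5 bases, CACGNG), the E-box CACGTG and the CCAAT box. Positions count back from the start, and the letters of the paired element were chosen after the TXNIP window had been read.
TXNIP, chr1:145996580-145996829, minus strand: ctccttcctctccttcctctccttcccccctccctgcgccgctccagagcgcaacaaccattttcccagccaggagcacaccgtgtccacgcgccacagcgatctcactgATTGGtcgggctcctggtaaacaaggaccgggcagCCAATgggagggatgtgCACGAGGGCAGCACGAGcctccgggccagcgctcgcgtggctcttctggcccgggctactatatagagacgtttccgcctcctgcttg
ARRDC4, chr15:97960453-97960702, plus strand: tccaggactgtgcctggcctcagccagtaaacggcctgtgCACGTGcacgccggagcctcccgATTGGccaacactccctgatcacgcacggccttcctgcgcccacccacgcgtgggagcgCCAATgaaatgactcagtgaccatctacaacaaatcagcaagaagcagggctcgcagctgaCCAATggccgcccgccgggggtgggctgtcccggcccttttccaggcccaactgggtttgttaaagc
MLXIPL, chr7:73624523-73624772, minus strand: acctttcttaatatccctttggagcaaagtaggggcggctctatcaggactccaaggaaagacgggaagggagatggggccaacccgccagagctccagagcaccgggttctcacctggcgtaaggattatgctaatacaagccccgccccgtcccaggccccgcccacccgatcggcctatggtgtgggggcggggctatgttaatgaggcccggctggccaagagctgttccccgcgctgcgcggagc
The TXNIP window held the paired element as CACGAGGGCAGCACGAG at positions -88 to -72, with CCAAT boxes at -140 to -136 and -105 to -101. The paired element was found in 16 of 35116 RefSeq windows of this length (0.0456%). The ARRDC4 window had 1 E-box, at -210 to -205, and 3 CCAAT boxes. An E-box was present in 6.34% of all windows, a CCAAT box in 32.0% and 2 or more CCAAT boxes in 9.53%. The MLXIPL window held none of these. A direct repeat of the kind bound by retinoic acid receptors (AGGTCA, any 5 bases, AGGTCA) was in 1 window of all and in none of the 6 genes. Letters this rare could hardly have been found in 6 genes, so their absence says nothing about receptor binding. MLX, the shared partner, had an E-box at -50 to -45. A match describes letters only.

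Summed counts per library lay between 2685984 (DOX replicate 3) and 19358619 (DOX replicate 2). NRIP1, the target of the shRNA, lay at 53.3 to 59.7 CPM (counts scaled to the library size after TMM) in untreated and 38.4 to 51.9 in ATRA libraries, against 14.99 to 19.2 in DOX and 15.9 to 20.9 in combined libraries. Mitochondrial ribosomal RNA, a measure of library composition, took 2.54 to 4.60% of counts in untreated and 2.09 to 2.74% in ATRA libraries, but 1.02 to 2.18% in DOX and 1.23 to 2.02% in combined libraries. Of 10 myeloid and monocytic markers 8 passed the filter, with summed levels of 1058 to 1333.5 CPM, while CD14 had 23 counts and CD68 had 94 over all 12 libraries. Of 11 markers of hepatocytes, islets and other non-myeloid cells, 7 to 9 were at 0 in each group. In bulk RNA, fewer cells with a transcript and less of it per cell cannot be told apart.

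MLXIPL, the ChREBP gene (chromosome 7, positions 73593194 to 73624543 of GRCh38, minus strand), was close to absent without ATRA and present in every library with it. It had 0, 0 and 2 counts in the untreated and 0, 1 and 0 counts in the DOX libraries. The ATRA libraries had 200, 86 and 94 counts, or 12.7, 9.14 and 9.06 CPM. The combined libraries had 153, 87 and 77 counts, or 9.20, 6.98 and 8.35 CPM. ATRA-exposed and other libraries did not overlap. Over summed counts and depth, the ATRA level was 215 times the untreated level (380 against 2 counts, exact 95% counting interval 59.0 to 1778). The combined level was 276 times the DOX level (317 against 1 count, interval 49.2 to 10944). Both untreated counts came from replicate 3 and the DOX count from replicate 2, so without these libraries the groups are at 0. In that second pair MLXIPL was called higher (edgeR quasi-likelihood adjusted p = 3.76e-10). This is not independent support. MLXIPL was chosen for its ATRA response, and only the ATRA-exposed libraries carried it past the filter on low counts. Counting intervals cover counting error only. With ATRA present, combined and ATRA libraries overlapped, and the log2 change of combined against ATRA was -0.34 ± 0.20 (SE, 95% interval -0.76 to 0.08, edgeR adjusted p = 0.380). For DOX against untreated no fold is given, since both groups were under a floor of 3 counts.

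MLXIP, the MondoA gene (chromosome 12, positions 122078722 to 122147347, plus strand), was well expressed in every library and moved little. It had 94.9, 93.3 and 111 CPM in untreated, and 109.9, 99.2 and 111 CPM in ATRA libraries. It had 95.9, 82.4 and 77.9 CPM in DOX, and 99.2, 93.2 and 87.7 CPM in combined libraries. By mean the order was ATRA, untreated, combined and DOX, and each group overlapped the next. The log2 change was 0.12 ± 0.10 for combined against DOX (95% interval -0.08 to 0.31, edgeR adjusted p = 0.447) and -0.19 ± 0.09 for combined against ATRA (interval -0.38 to 0.00, adjusted p = 0.266), with 99.21 CPM in the highest combined and 99.23 in the lowest ATRA library. For DOX against untreated it was -0.21 ± 0.09 (edgeR adjusted p = 0.127), and without DOX replicate 1 MLXIP was called lower (-0.31, adjusted p = 0.0249). With the mitochondrial ribosomal RNA share as a model term the sign turned (0.03, adjusted p = 0.977).

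MLX, the partner of both factors (chromosome 17, positions 42567068 to 42573239, plus strand), varied least. It had 90.0, 89.8 and 83.9 CPM in untreated and 93.5, 92.3 and 89.8 CPM in ATRA libraries. It had 91.4, 101 and 103 CPM in DOX and 97.1, 95.7 and 96.2 CPM in combined libraries. DOX libraries lay above untreated and combined above ATRA libraries, by small steps that did not pass the test. The log2 changes were 0.16 ± 0.08 (95% interval 0.00 to 0.32, edgeR adjusted p = 0.165) and 0.07 ± 0.08 (-0.09 to 0.22, adjusted p = 0.678). For combined against DOX the change was -0.02 ± 0.08 (-0.18 to 0.14, edgeR adjusted p = 0.877).

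Levels of different genes were set side by side per kilobase of annotated exon (GENCODE 29, all transcripts of a gene merged). MLXIP stood at 7.68 ± 0.469 CPM per kilobase in ATRA and 6.72 ± 0.414 in combined cells (SD, n = 3). MLXIPL stood at 2.14 ± 0.433 and 1.70 ± 0.232. MLXIPL made up 25.03, 21.0 and 19.1% of the 2 factors' summed level in the ATRA libraries and 21.1, 17.8 and 21.6% in the combined libraries. In libraries without ATRA its share was at most 0.286%. MLX, at 21.6 ± 0.443 CPM per kilobase in ATRA cells, was above the sum of both factors. The merged exons of MLXIP span 13905 bases against 4815 for MLXIPL, so the shares depend on the annotation.

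**Figure D1:**
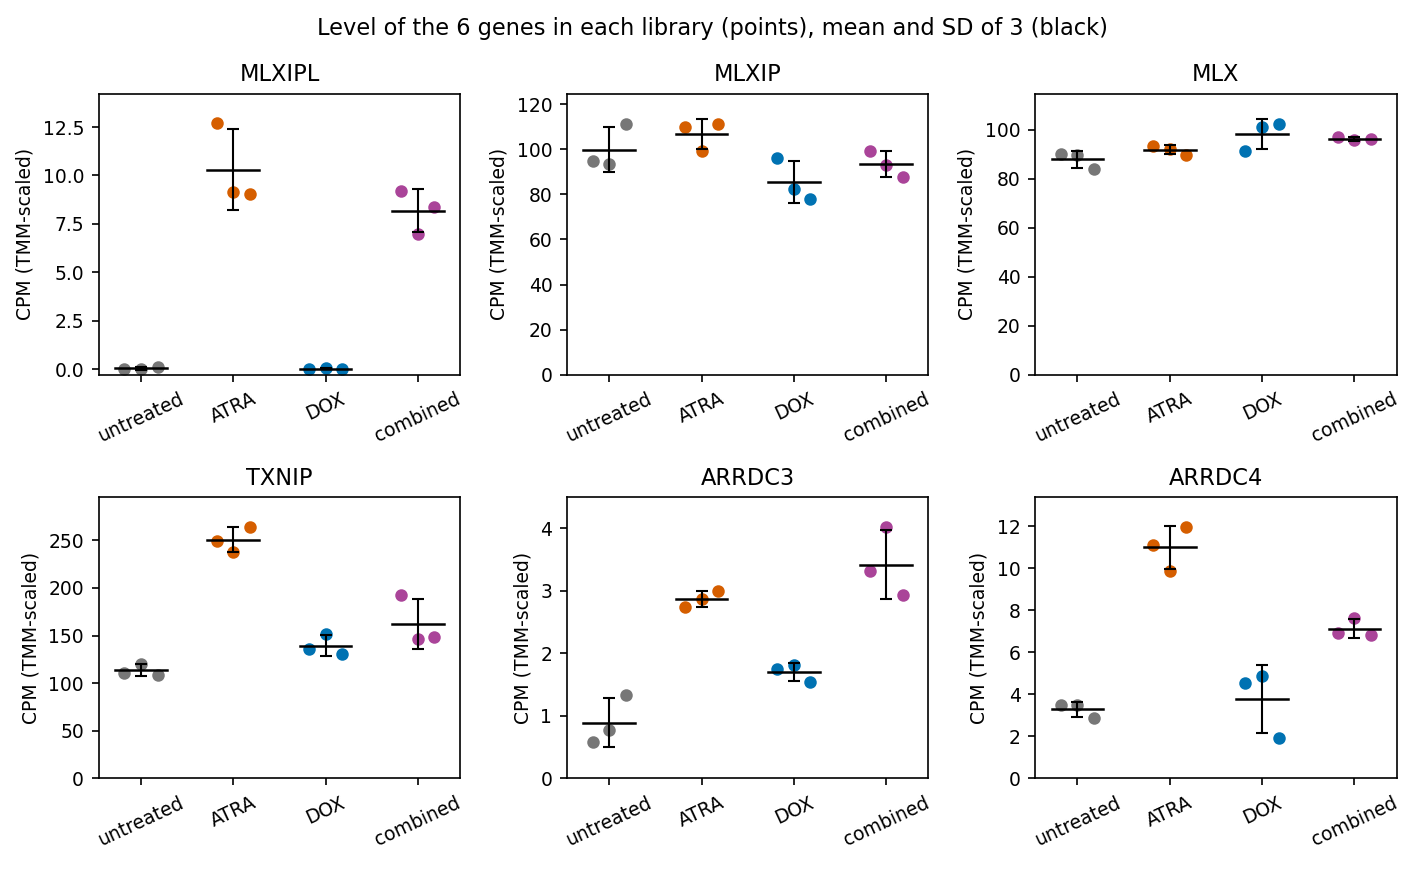
Level of the 6 genes in TMM-scaled CPM (vertical axes, linear, scaled per gene) in each library (points), with the mean and SD of 3 libraries in black, by group. MLXIPL is near 0 without ATRA, MLXIP and MLX are nearly level, and TXNIP is highest in the ATRA libraries, at 238 to 264 CPM.

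TXNIP, which restrains glucose uptake and binds thioredoxin (chromosome 1, positions 145992435 to 145996600, minus strand), responded to ATRA mainly where DOX was absent. Untreated libraries held 111, 120.4 and 109 CPM of TXNIP, and ATRA libraries held 249.75, 238 and 264 CPM. DOX libraries held 136, 152 and 130.2 CPM, and combined libraries 193, 146 and 148 CPM. The ATRA libraries lay above all others, and 2 of 3 combined libraries lay within the range of the DOX libraries. Without DOX the level under ATRA was 2.21 times the untreated level (log2 1.14 ± 0.10). With DOX the ratio was 1.16 (log2 0.21 ± 0.10, 95% interval of the ratio 1.003 to 1.34, edgeR adjusted p = 0.152).

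The difference between these ATRA effects, the interaction, was -0.93 ± 0.14 on the log2 scale for TXNIP (95% interval -1.22 to -0.64, edgeR adjusted p = 0.00451). It was called for 1 of the 6 genes, TXNIP, and for 0.267% of all genes tested, 0.224% with the lower sign. TXNIP passed the threshold in each of 19 alternative analyses, with values from -1.07 to -0.86 and adjusted p from 1.24e-06 to 0.0474.

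Among ATRA-exposed cells TXNIP fell with DOX: combined against ATRA gave -0.62 ± 0.10, or 0.650 times the ATRA level (95% interval 0.564 to 0.748, edgeR adjusted p = 0.000496). The call held in all 20 alternatives, with values of -0.76 to -0.55 and adjusted p of 5.28e-07 to 0.00866. Of the 6 genes 1 was called in this comparison, against 4.43% of all genes in either direction and 2.54% lower. The myeloid markers ITGAM (-0.43, edgeR adjusted p = 0.0190) and CSF1R (-0.53, adjusted p = 0.0405) were lower in the same comparison, 2 of the 8 tested. The summed level of that list was 1264 to 1333.5 CPM in ATRA and 1109 to 1221 CPM in combined libraries. For DOX against untreated the changes were -0.37 for ITGAM (edgeR adjusted p = 0.0402) and -0.46 for CSF1R (adjusted p = 0.103). Their interactions were -0.06 (adjusted p = 0.924) and -0.07 (adjusted p = 0.952). The part of this in the TXNIP result was not tested.

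Without ATRA the direction was opposite. DOX libraries lay above untreated libraries for TXNIP, by 0.31 ± 0.10 (edgeR adjusted p = 0.0445), and again 1 of 6 genes was called, against 15.2% of all genes in either direction and 8.08% higher. That call was lost in 14 of 20 alternatives, with changes of 0.24 to 0.35 over all 20. It was lost without any single untreated or ATRA library, without DOX replicate 2 (0.24, adjusted p = 0.223) and without DOX replicate 3 (0.35, adjusted p = 0.0562). With the mitochondrial ribosomal RNA share as a model term the change was 0.28 (adjusted p = 0.598). That share moved with DOX, and its part in the result was not tested further.

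ARRDC4, the other classic target (chromosome 15, positions 97960698 to 97973838, plus strand), had the highest level in the ATRA libraries as well. It had 3.48, 3.51 and 2.87 CPM in untreated and 11.1, 9.88 and 11.95 CPM in ATRA libraries. The DOX libraries had 4.54, 4.89 and 1.92 CPM, the last from 5 counts, and the combined libraries had 6.91, 7.63 and 6.83 CPM. The combined libraries lay above all DOX and below all ATRA libraries. The ATRA level was 3.38 times the untreated level (log2 1.76 ± 0.20). With DOX present ARRDC4 rose by 0.72 ± 0.20, a ratio of 1.64 (edgeR adjusted p = 0.0167). That call was lost without combined replicate 2 (0.65, adjusted p = 0.0647) and with both groups fitted alone (0.73, adjusted p = 0.0559).

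The interaction for ARRDC4 was -1.04 ± 0.29 (95% interval -1.63 to -0.45, edgeR adjusted p = 0.146), which did not pass the threshold in the main or any alternative analysis. For combined against ATRA the change was -0.63 ± 0.18 (edgeR adjusted p = 0.0527). It passed in 6 of 20 alternatives, namely without untreated replicate 3 (adjusted p = 0.0479), without DOX replicate 1 (0.0351), 2 (0.0304) or 3 (0.0298), without untreated and DOX replicates 3 together (0.0256), and with both groups fitted alone (0.0183), at changes of -0.63 to -0.62. DOX against untreated gave 0.41 ± 0.22 (adjusted p = 0.202), and with thinned libraries the sign turned (-0.35, adjusted p = 0.609).

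ARRDC3 (chromosome 5, positions 91368724 to 91383359, minus strand) was the member with the fewest counts apart from MLXIPL without ATRA, 4 to 55 per library. It had 0.580, 0.771 and 1.33 CPM in untreated and 2.73, 2.87 and 2.99 CPM in ATRA libraries. It had 1.75, 1.81 and 1.54 CPM in DOX and 3.31, 4.01 and 2.93 CPM in combined libraries. Every ATRA-exposed library lay above every other, and the combined libraries were not below the ATRA libraries as they were for TXNIP and ARRDC4. The ATRA level was 3.00 times the untreated level (log2 1.58 ± 0.30), and without untreated replicate 3 the log2 value was 2.05. With DOX present ARRDC3 rose by 0.97 ± 0.29, a ratio of 1.95 (edgeR adjusted p = 0.0216), a call lost without DOX replicate 2 (1.01, adjusted p = 0.0682) or combined replicate 2 (0.83, adjusted p = 0.104). With thinned libraries ARRDC3 did not pass the filter and was not tested.

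DOX and untreated libraries did not overlap for ARRDC3 either, and the change was 0.88 ± 0.33 (edgeR adjusted p = 0.0748), or 1.36 (adjusted p = 0.0455) without untreated replicate 3. Combined against ATRA gave 0.26 ± 0.26 (interval -0.28 to 0.81, adjusted p = 0.634), and the interaction was -0.62 ± 0.42 (-1.50 to 0.26, adjusted p = 0.627). ARRDC3-AS1, a transcript on the opposite strand that overlaps ARRDC3, had 50 counts over all libraries. The strand setting of the counting is not given in the sources used here, so reads of the pair cannot be told apart.

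Under ATRA alone 4 of the 6 genes were called higher, beside 15.7% of all genes (28.9% in either direction), with no overlap of their libraries, as for 22.8% of all genes. Nothing is read from these counts because this comparison led to the choice of genes. For combined against DOX 3 of 6 rose (MLXIPL, ARRDC3 and ARRDC4), beside 10.7% of all genes called higher and 19.0% called in either direction. Of these 3, MLXIPL carries the limit given above. The libraries of these 3 did not overlap, which was so for 16.7% of all genes in that direction. For DOX against untreated, MLX, TXNIP and ARRDC3 were higher with no overlap, 3 of 6 beside 17.0% of all genes. For combined against ATRA, MLXIP, TXNIP and ARRDC4 were lower with no overlap, beside 13.4% of all genes, and MLX was higher, beside 13.1%.

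**Figure D2:**
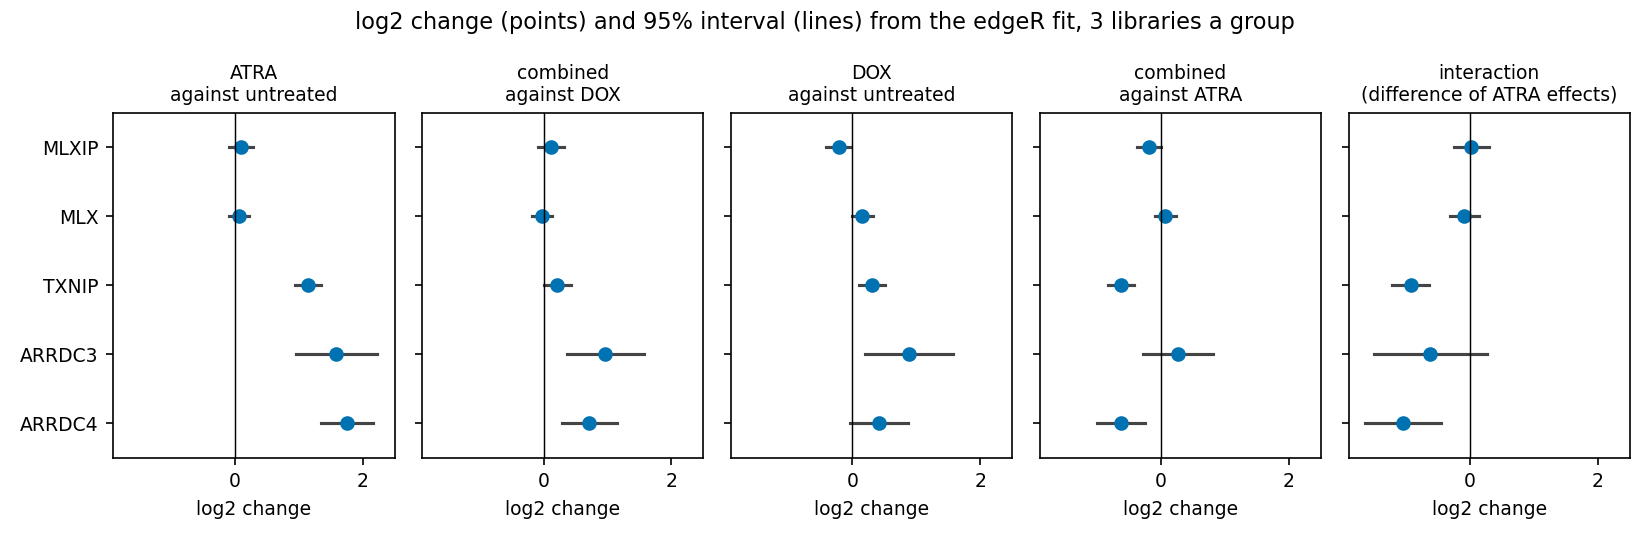
Log2 change (points) with its 95% interval (lines) from the edgeR fit, for 5 genes in 5 comparisons, with 3 libraries a group; MLXIPL is left out because its groups without ATRA hold 1 and 2 counts. TXNIP lies at 1.14 for ATRA alone, at 0.21 for ATRA with DOX and at -0.93 for the difference, while MLXIP and MLX stay near 0.

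The genes beside MLXIPL on chromosome 7 rose with ATRA as well. Within 100 kb, 7 of 10 listed genes passed the filter, and all 7 were called higher by edgeR both for ATRA against untreated and for combined against DOX, where 15.7% and 10.7% of all genes were. TBL2, a WD-repeat gene on the same strand 14403 bases from MLXIPL, had 37.2, 45.1 and 47.2 CPM in untreated and 183, 185 and 189 CPM in ATRA libraries. It had 52.7, 54.2 and 53.8 CPM in DOX and 188, 200.5 and 189 CPM in combined libraries. Its log2 changes were 2.10 ± 0.09 (edgeR adjusted p = 6.78e-14) and 1.85 ± 0.09 (adjusted p = 1.24e-12). VPS37D, an ESCRT-I subunit gene on the opposite strand 43282 bases away, had 2, 2 and 4 counts in untreated and 102, 53 and 64 counts in ATRA libraries. It had 2, 5 and 1 counts in DOX and 48, 71 and 57 counts in combined libraries. Its log2 changes were 4.87 ± 0.40 (edgeR adjusted p = 4.42e-09) and 4.27 ± 0.42 (adjusted p = 1.52e-07). Only the ATRA-exposed libraries carried VPS37D past the filter. Both changes rest on 1 to 5 counts per library without ATRA, so its calls add no support.

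The other 5 genes near MLXIPL, BCL7B, DNAJC30, BUD23, BAZ1B and STX1A, changed by 0.38 to 0.54 and by 0.40 to 0.71 on the log2 scale. With all libraries thinned to the smallest, BCL7B and STX1A were not called in either comparison, nor DNAJC30 for ATRA against untreated. STX1A was also lost for ATRA against untreated when untreated replicate 1, untreated replicate 2 or ATRA replicate 1 was left out, with DESeq2 and with the mitochondrial term, its adjusted p reaching 0.564 over all alternatives. Around TXNIP 0 of 7 tested genes were called higher by edgeR in either comparison (1 and 0 at an unadjusted p under 0.05, 0 and 0 by DESeq2). LIX1L there was lower for ATRA against untreated (-0.29 ± 0.09, edgeR adjusted p = 0.0258). Around MLX 2 of 11 were higher for ATRA against untreated (ATP6V0A1 and PLEKHH3) and 1 for combined against DOX (PLEKHH3). Around MLXIP VPS33A was higher in the first comparison by edgeR but not by DESeq2, and BCL7A was lower in both (-0.59 and -0.36), of 5 tested. No gene within 100 kb of ARRDC3 or ARRDC4 passed the filter.

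**Figure D3:**
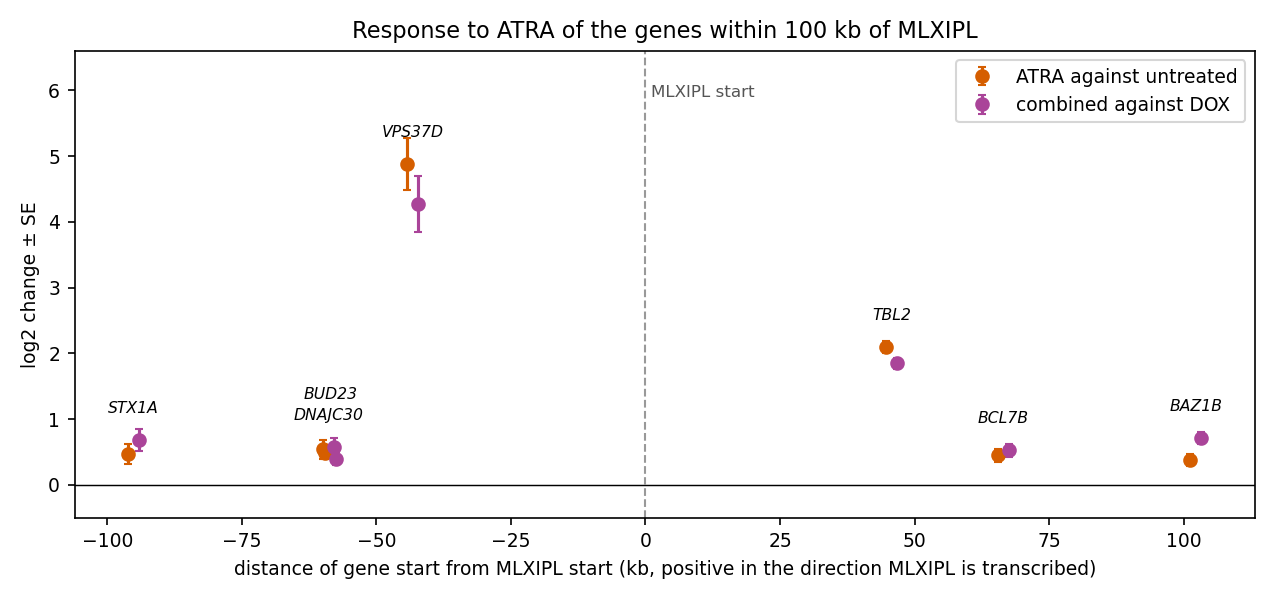
Log2 change ± SE (vertical axis) of the 7 tested genes within 100 kb of MLXIPL, by the distance in kb of their start from the MLXIPL start (dashed line), for ATRA against untreated and combined against DOX. Every point is above 0, with VPS37D at 4.87 and 4.27 and TBL2 at 2.10 and 1.85.

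Listed targets of ChREBP and MondoA other than TXNIP and ARRDC4 did not move in 1 direction. Of 27, 16 passed the filter, while PKLR, the liver pyruvate kinase gene, had 50 counts over all libraries. For ATRA against untreated 4 rose and 2 fell (median log2 change 0.17, beside -0.01 for all genes). Of all genes 15.7% were called higher and 28.9% in either direction. RGS16, a regulator of G-protein signalling, rose from 35.7 ± 0.627 to 82.2 ± 6.38 CPM (SD, n = 3; log2 1.204 ± 0.11, edgeR adjusted p = 2.38e-08). BHLHE40, a clock-linked repressor, rose from 44.3 ± 1.62 to 86.3 ± 9.70 CPM (0.96 ± 0.11, adjusted p = 1.17e-06). ELOVL6, a fatty acid elongase, rose from 1.26 ± 0.322 to 5.18 ± 0.580 CPM (edgeR adjusted p = 6.99e-06). PNPLA3 also rose, from 0.289 ± 0.0833 to 1.26 ± 0.268 CPM (2.02 ± 0.49, edgeR adjusted p = 0.00337), with 81 counts over all libraries. Only the ATRA libraries carried PNPLA3 past the filter, so its call, 1 of the 4, adds no support. The lipid synthesis genes SCD and FASN were the 2 that fell, with log2 changes of -0.53 ± 0.09 for SCD (edgeR adjusted p = 0.000135) and -0.43 ± 0.08 for FASN (adjusted p = 0.000524).

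For combined against DOX, RGS16 (1.28), BHLHE40 (0.91) and ELOVL6 (1.66) rose again and 0 of 16 fell by edgeR (0 at an unadjusted p under 0.05, 0 by DESeq2). The list's median was 0.17 beside -0.01. These 3 calls of 16 stand beside 10.7% of all genes called higher and 19.0% called in either direction. The ELOVL6 call was lost with thinned libraries (1.17, adjusted p = 0.133). For combined against ATRA, where TXNIP fell, 3 of 16 were higher: SCD (0.43, edgeR adjusted p = 0.00763), RGS16 (0.41, adjusted p = 0.0256) and MID1IP1 (0.35, adjusted p = 0.0413). The median was 0.20 beside 0.00 for all genes, rounded from -0.00014, and 4.43% of all genes were called in either direction. The SCD call was lost without ATRA replicate 2 or combined replicate 2 (adjusted p = 0.0544 and 0.0652), and those of RGS16 and MID1IP1 were lost in 6 and 10 of 20 alternatives. ME1, the cytosolic malic enzyme gene, rose for DOX against untreated by 0.98 ± 0.18 (edgeR adjusted p = 0.00221). The call was lost with the mitochondrial term (0.88, adjusted p = 0.197) and without untreated and DOX replicates 3 (0.78, adjusted p = 0.0577).

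**Figure D4:**
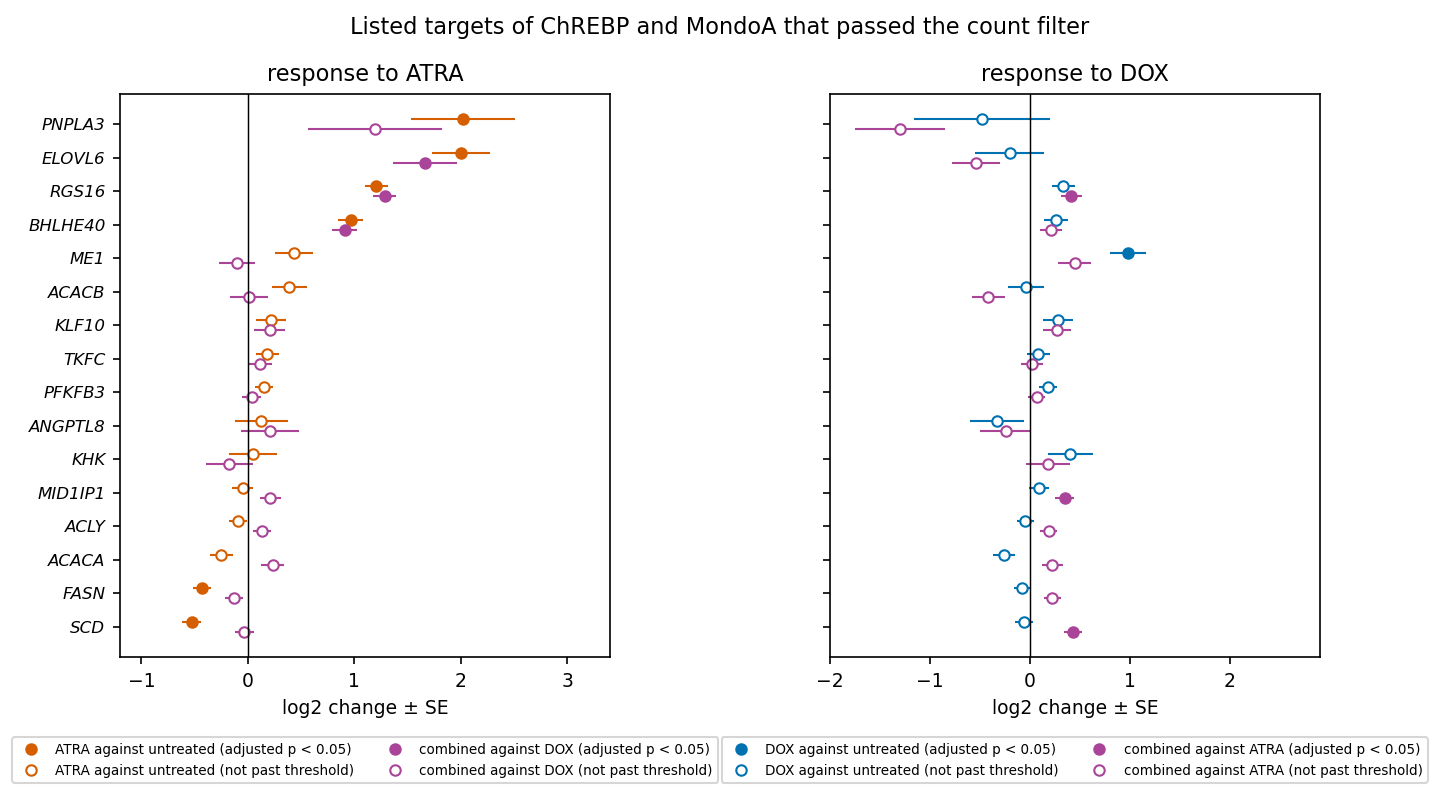
Log2 change ± SE (horizontal axis) of the 16 listed targets that passed the filter, for the ATRA comparisons (left) and the DOX comparisons (right); filled points passed an adjusted p of 0.05. RGS16, BHLHE40 and ELOVL6 are filled in both ATRA comparisons, and SCD is at -0.53 for ATRA against untreated and at 0.43 for combined against ATRA.

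Genes of glucose entry and phosphorylation, which make the signal that both factors sense, gave calls in both directions that depended on the setting. Of 13 tested, 3 rose and 2 fell for ATRA against untreated and 4 rose and 2 fell for combined against DOX (medians 0.19 and 0.02), beside 28.9% and 19.0% of all genes called in either direction. Both counts of rising genes include SLC2A6, at a mean of 0.187 CPM in untreated and 0.163 in DOX libraries. Only ATRA-exposed libraries carried SLC2A6 past the filter, so its calls add no support. The 2 that fell for combined against DOX, HK1 and HK2, were both lost with library size alone, with groups fitted alone, with thinned libraries, and without DOX replicate 2, combined replicate 2 or combined replicate 3. For that comparison 2 genes rose with groups fitted alone, without DOX replicate 3 or without combined replicate 3, and 1 without untreated and DOX replicates 3. With thinned libraries 1 rose for ATRA against untreated. HK3, a hexokinase of myeloid cells, rose from 1.89 ± 0.797 to 9.97 ± 0.631 CPM (2.34 ± 0.27, edgeR adjusted p = 8.54e-07) and by 2.06 ± 0.28 with DOX present (adjusted p = 1.45e-05). SLC2A3, the glucose transporter GLUT3, fell from 107 ± 5.49 to 63.9 ± 3.35 CPM (-0.74 ± 0.09, edgeR adjusted p = 1.48e-06). In combined cells it stood at 93.4 ± 6.85 CPM, higher than in ATRA cells by 0.55 ± 0.09 (edgeR adjusted p = 0.000805). Its interaction (0.53 ± 0.13, edgeR adjusted p = 0.0810) and its change for combined against DOX (-0.21 ± 0.09, adjusted p = 0.115) did not pass the threshold. SLC2A1, of the same list, rose for combined against DOX (0.36 ± 0.10, edgeR adjusted p = 0.0133), a call lost without combined replicate 3 (0.28, adjusted p = 0.0847).

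In the MAX network, some of whose proteins also dimerise with MLX, 9 of 10 genes passed the filter. MYC fell with ATRA from 547 ± 48.0 to 373 ± 21.5 CPM (-0.55 ± 0.09, edgeR adjusted p = 0.00014) and had a log2 change of -0.66 ± 0.10 for combined against DOX (adjusted p = 2.97e-05). MXI1, which opposes MYC, fell in both, with -0.47 ± 0.09 (edgeR adjusted p = 0.000312) and -0.42 ± 0.09 (adjusted p = 0.00187), the latter lost with thinned libraries (-0.33, adjusted p = 0.0787). MYCL rose by 0.60 ± 0.16 for ATRA against untreated (edgeR adjusted p = 0.00835), a call lost without ATRA replicate 3 (adjusted p = 0.0616) and with thinned libraries (0.68, adjusted p = 0.0925).

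Genes of the thioredoxin system, the other known partner of TXNIP, were called mostly for DOX against untreated, where 8 of 12 genes rose and 0 fell by edgeR (0 at an unadjusted p under 0.05, 0 by DESeq2), with a median of 0.31 beside 0.01. Of all genes 8.08% were called higher and 15.2% in either direction. TXN, the thioredoxin gene, went from 155 ± 7.96 to 214 ± 39.2 CPM (0.48 ± 0.10, edgeR adjusted p = 0.00592), and GLRX rose by 0.64 ± 0.12 (adjusted p = 0.00258). With the mitochondrial term 0 of 12 were called, without DOX replicate 2 there were 2, without untreated replicate 3 or with thinned libraries there were 4, with groups fitted alone, without untreated replicate 2 or without DOX replicate 3 there were 5, and without untreated and DOX replicates 3 there were 0. The mitochondrial ribosomal share moved with DOX, as given above. For combined against DOX 4 fell, beside 19.0% of all genes called in either direction. PRDX1 (-0.41 ± 0.09, edgeR adjusted p = 0.00309) was called in all alternatives, while TXN, GLRX2 and PRDX4 were lost without DOX replicate 2 (adjusted p = 0.311, 0.122 and 0.134) and in several others.

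Genes of arrestin partners gave few calls, in sets too small to read this as a result about them. Of all genes 28.9% were called in either direction for ATRA against untreated, 19.0% for combined against DOX and 15.2% for DOX against untreated. For combined against ATRA and the interaction these shares were 4.43% and 0.267%. Of 7 tested NEDD4-type ligases 0 were called by edgeR in any of the 5 comparisons, and 0 by DESeq2. At an unadjusted p under 0.05 there were 1 for ATRA against untreated, 2 for combined against DOX, 1 for DOX against untreated, 2 for combined against ATRA and 0 for the interaction. Fitting both groups alone gave 1 lower call for ATRA against untreated. Leaving out DOX replicate 1 gave 1 call for combined against DOX and 1 for DOX against untreated, and leaving out combined replicate 1 gave 1 for combined against ATRA. Of 5 tested AMPK subunits, the kinase that phosphorylates TXNIP, 0 were called by edgeR over all groups or by DESeq2 in any comparison, with 2 at an unadjusted p under 0.05 for ATRA against untreated and 0 in the others. Alternatives gave 1 lower call for ATRA against untreated with groups fitted alone and with the replicate block, 1 higher with the mitochondrial term, and 1 higher for combined against DOX without DOX replicate 1. Among 4 other tested arrestin-fold genes, ARRDC2 rose for ATRA against untreated (0.30, edgeR adjusted p = 0.0157), which did not hold with untreated replicate 3 or ATRA replicate 1 left out (adjusted p = 0.0799 and 0.0791), without untreated and DOX replicates 3 (adjusted p = 0.0924) or with thinned libraries (0.14, adjusted p = 0.475). The beta-arrestin gene ARRB1 fell for combined against DOX (-0.41 ± 0.09, edgeR adjusted p = 0.00144).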

How the data were processed

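Paired-end RNA-seq of total RNA was counted per gene. The deposited values are raw counts, made with FastQC, STAR and HTSeq on GRCh38 per the submitters' processing notes. Versions, annotation release and strand setting are not given in the sources used here. The 12 libraries were grouped by the labels. edgeR 4.0.16 in R 4.3.3 fitted 1 quasi-likelihood model of 4 group means, with filterByExpr, TMM and Benjamini-Hochberg adjustment over all 16104 genes tested, at a threshold of 0.05. Standard errors were derived by dividing each log2 change by the root of its F statistic. Members and lists were chosen with earlier results of these data known. Some listed genes are not reported here. Named are all members, up to 4 called genes per list and comparison with the smallest adjusted p, genes within 100 kb, and the 5 genes most correlated with a member. FASN and PNPLA3 are named beyond that rule, to give all listed targets called for ATRA against untreated. Alternatives were DESeq2 1.42.0, library size alone, no filter, groups fitted alone, thinning, a replicate block, a mitochondrial ribosomal RNA term and each library left out. Leaving out untreated and DOX replicates 3 together was added after seeing the data. On simulated counts for the interaction (15824 genes), 44.8, 64.2 and 97% of changes of 1.5-, 2- and 4-fold were recovered. For combined against ATRA (15820 genes) the shares were 68.7, 89.6 and 100%. In these simulations 66 or 67 genes per fold were changed, drawn from genes with a mean of at least 2 CPM. All groups otherwise had the same mean, so the shares do not cover MLXIPL, which was near 0 without ATRA. Replicate pairs differed by more than sampling noise, with chi-square per degree of freedom of 2.48 to 25.9.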

Additional observations from a re-analysis of the deposited data

Results flagged for a closer look

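TXNIP was singled out because its ATRA effect differed between cells with and without DOX by a test of that difference: the log2 ATRA effect with DOX minus that without was -0.9292 (edgeR adjusted p = 0.00451), with the ATRA level above untreated in 3 of 3 libraries. The cause was not tested.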

How the results depend on the processing

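Of 550 values of the 6 genes under alternatives, 503 kept their direction and side of the threshold (or, without a test, stayed within the spread), and 13 changed sign, none of them called. These were MLX for combined against DOX with library size alone (0.0051), with the mitochondrial term (0.0066) and without DOX replicate 2 or 3 (-0.072 to 0.012 over all fits with 1 library left out), MLXIP for DOX against untreated with that term (0.034), ARRDC4 for DOX against untreated with thinned libraries (-0.35), and MLXIP for the interaction with that term (-0.12), without both replicates 3 (-0.12) and in 5 fits with 1 library left out (-0.070 to 0.12 over all such fits). The number of genes called for the interaction was 43, against 117 with DESeq2, 24 with library size alone, 189 with no filter, 21 with thinned libraries and 9 without untreated and DOX replicates 3. Leaving out 1 library gave 10 (ATRA replicate 3) to 747 (DOX replicate 1). For DOX against untreated 2446 genes were called, against 1573 with groups fitted alone, 1187 thinned, 77 with the mitochondrial term, 169 without both replicates 3, and 659 (without DOX replicate 2) to 4326 (without DOX replicate 1). Thinning gave 2670 in place of 4652 for ATRA against untreated, 1897 in place of 3054 for combined against DOX and 373 in place of 713 for combined against ATRA. Thinned fits tested 12768 genes. Leaving out 1 library gave 3455 to 5344, 2195 to 3898 and 264 to 1028 in these. Other causes were not tested. Replicate numbers are shared across groups, but same-numbered libraries did not deviate together (correlations -0.24 to 0.27 over 18 pairs). With a replicate block 4677, 3052, 2349, 729 and 54 genes were called for ATRA, combined against DOX, DOX, combined against ATRA and the interaction, and TXNIP for DOX against untreated had an adjusted p of 0.0516 at 0.30 by edgeR. Depth limits MLXIPL, ARRDC3 and ARRDC4, with 0, 4 and 5 counts in DOX replicate 3.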

Other observations

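Over the 12 libraries, the genes most like MLXIPL in log2 CPM among 11908 ranked were PSAP, HIC1, DHRS3, TNFRSF1B and COL8A2 (Pearson r of 0.994 to 0.995). PSAP, a lysosomal saposin precursor, had group means of 272 CPM in untreated, 2481 in ATRA, 284 in DOX and 2014 in combined cells. DHRS3, a retinaldehyde reductase, had 3.76, 258, 3.72 and 286 CPM in the same order. The genes most like TXNIP were CD74 (r = 0.978), CIITA (0.972), DENND1C (0.958), PIK3CD (0.955) and HNMT (0.950). CD74, the invariant chain of class II antigen presentation, had 77.4, 217, 90.6 and 115 CPM, and CIITA, the class II transactivator, had 26.2, 54.0, 30.0 and 37.7 CPM. For ARRDC4 they were RNF141 (0.973), HLA-DRA (0.964), ZCCHC24 (0.962), ZNF230 (0.962) and HLA-DPA1 (0.957), and for ARRDC3 TMEM104 (0.974), CD40 (0.973), AP5B1 (0.960), TRAPPC6A (0.956) and TXNDC11 (0.953). All share the same libraries and scaling, so these values are descriptions.

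MLX and MLXIP were inversely related over the 12 libraries (Pearson r of log2 CPM -0.77, and -0.81 after subtracting group means), also as a description.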
